A study of Ovis aries with 2 samples.

Results

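The genes described here are 8 receptors and signalling genes grouped here under the heading of resting microglia: P2RY12, CSF1R, CALCR, IL6R, KCNK13, INPP5D, VAV1 and RUNX1. They were taken by symbol from the feature lists of both libraries, where 8 of 8 were present among 12652 distinct symbols. The material was single-nucleus RNA from the cerebral cortex of an adult female Rambouillet sheep, wildtype, aged between 18 and 36 months, with no treatment of the living animal. The pre-processed library came from nuclei taken straight from dissected cortex. In the post-processed library the tissue first went through removal of debris and red blood cells, as the series text describes it; the treatment label of that library repeats the wording of the other, so its direction rests on its title. Both libraries carry the same batch label and come from 1 animal, and there was 1 library for each preparation. No difference below therefore has a replicate check. Intervals are 95% and cover counting error only, and no p-value was computed.

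Microglia are the resident macrophages of the brain and survey it with mobile processes. In mice and humans, P2RY12 is the Gi-coupled receptor through which these processes follow extracellular ADP, and its loss is a common sign that microglia have left the resting state. CSF1R, the receptor tyrosine kinase for the ligands CSF1 and IL34, keeps microglia alive. KCNK13 encodes a tandem-pore potassium channel that sets the microglial membrane potential and, with it, surveillance. INPP5D encodes SHIP1, an inositol phosphatase that opposes PI3-kinase signals downstream of immune receptors. VAV1 encodes an exchange factor that activates Rac in blood-lineage cells, and RUNX1 is a transcription factor of blood and early microglial development. CALCR is the calcitonin receptor, and IL6R is the ligand-binding chain of the interleukin 6 receptor, which signals together with IL6ST through JAK kinases.

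The pre-processed library held 2125 barcodes with 9580441 unique molecular identifiers (UMIs), a median of 2524 per barcode. The post-processed library held 905 barcodes with 794203 UMIs, of which 494 barcodes had at least 100 detected genes and were kept, with a median of 667.5 UMIs. The series text states about 5000 nuclei for each preparation and, in the sources used here, gives no filter that leads to these barcode numbers. The libraries shared 0 barcodes. Clustering without the 8 genes and without FOS gave a microglia-like class of 85 barcodes (4% of the library) before and 177 barcodes (35.8%) after processing. Of the 14 listed microglial markers present in the files, 14 were raised in that cluster, which was led by DMP1, PDK4, CD86, EHD4 and DOCK8. The limit for a raised marker was low. By it 13 of the 14 were also raised in the endothelium-like, 8 in the astrocyte-like and 7 in the oligodendrocyte precursor-like cluster. The name therefore rests on these markers being the most raised of the marker lists, not on the count alone. A second cluster with 13 of those markers raised held 1 pre-processed and 229 post-processed barcodes, the latter with a median of only 234 UMIs. It was kept apart as the shallow cluster, although a depth limit at the library median divided by 3, 222.5 UMIs, would have let it be called microglia-like. None of the 6 listed markers of border macrophages was analysed here, so microglia and border macrophages cannot be told apart.

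In the pre-processed cortex each of the 8 genes stood far higher in microglia-like barcodes than in the 2040 other barcodes. All values are in counts per 1000000 UMIs (CPM) of the summed barcodes. Among the receptors, P2RY12 was at 3121 CPM in microglia-like barcodes and at 32.3 CPM in the others, a log2 ratio of 6.59 (6.38 to 6.81). CSF1R was at 1340 against 12.9 CPM, a log2 ratio of 6.70 (6.36 to 7.04). CALCR had the highest ratio of the 8, 6.98 (6.68 to 7.28), from 2002 against 15.9 CPM. The intervals of these 3 receptors overlapped one another, so no order among their ratios can be given. IL6R was at 457 against 10.4 CPM, a smaller log2 ratio of 5.47 (4.97 to 5.94). KCNK13, the potassium channel, had the smallest ratio, 4.82 (4.67 to 4.97), with 3784 CPM in the class and 134 CPM in the other barcodes. Its interval lay below those of the other genes except IL6R, which it just touched. Among the intracellular signalling genes, INPP5D was at 4111 against 52.5 CPM, a log2 ratio of 6.29 (6.11 to 6.47). VAV1 was at 495 against 4.02 CPM, a log2 ratio of 6.94 (6.34 to 7.56). RUNX1 was at 1660 against 23.9 CPM, a log2 ratio of 6.12 (5.84 to 6.39).

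Thus 8 of 8 were at least 2-fold higher, where 30.2% of the 7370 genes with at least 20 UMIs were, and none was at least 2-fold lower, where 12% were. The median log2 ratio of the 8 was 6.44 and that of all measured genes 0.39, or 0.29 with genes at 0 in either group placed at their bound. Each of the 8 lay at or above the 98.5th percentile of the measured genes. The 8 were grouped as microglial genes with earlier results of these data known. These shares, here and after processing, therefore describe size and are no test of the set.

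**Figure D1:**
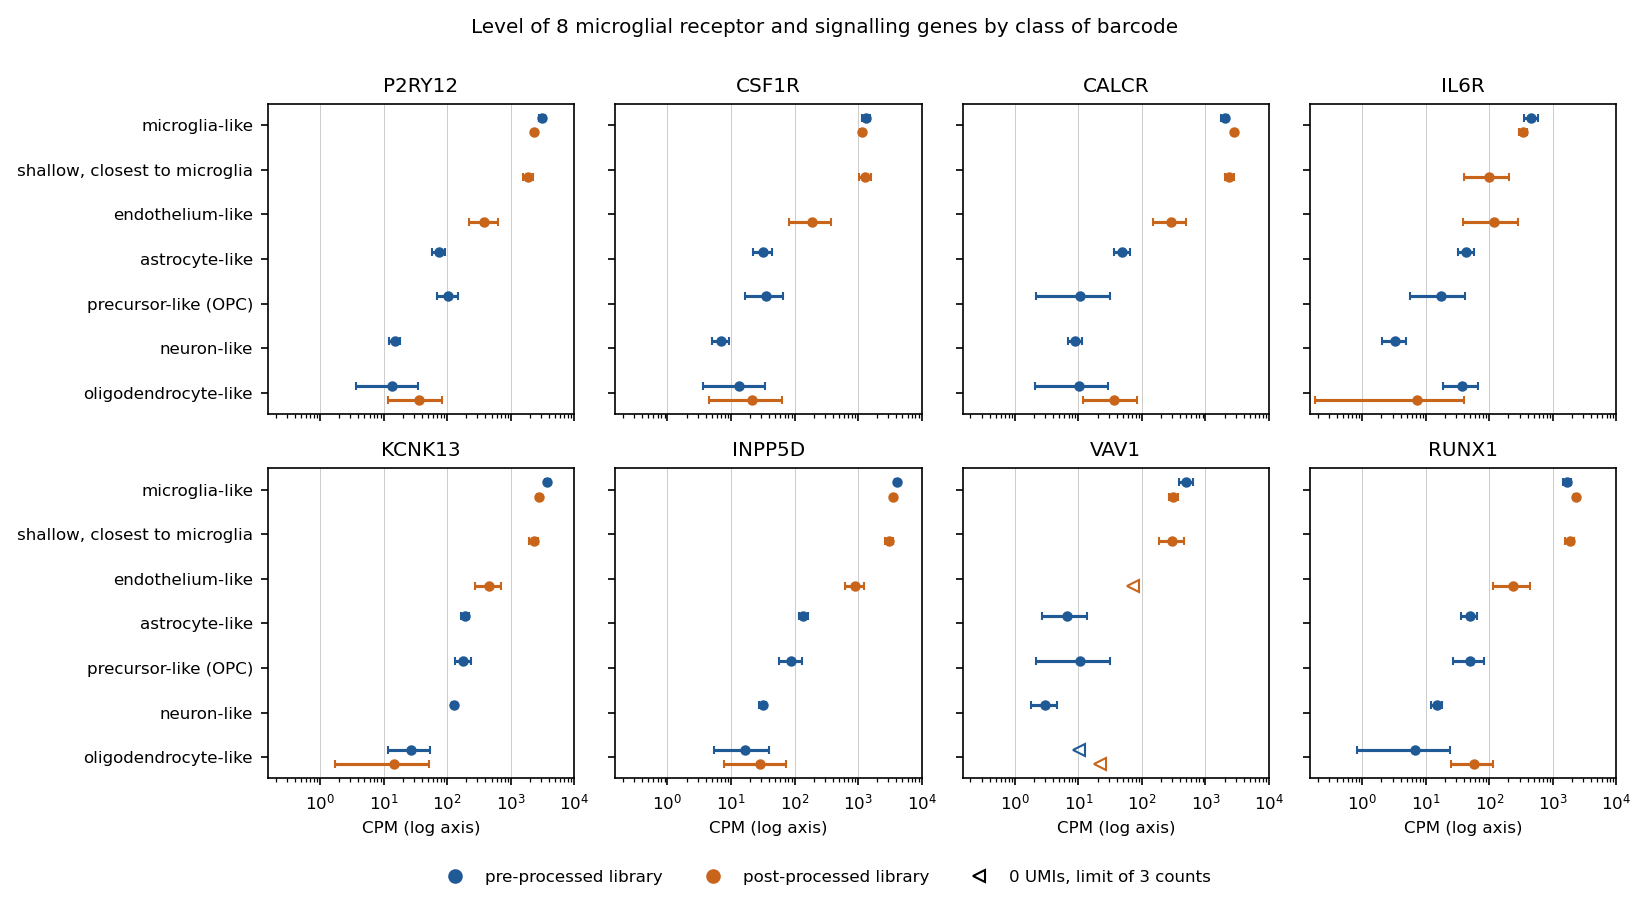
Level of each gene in CPM (log axis) in classes of at least 20 barcodes, pre-processed in blue and post-processed in orange; bars are 95% counting intervals and an open triangle marks 0 UMIs at the limit of 3 counts. In either library the microglia-like barcodes lie above the named classes of other cells for each gene, the shallow cluster lies near them except for IL6R, and KCNK13 is at 129 CPM in neuron-like barcodes.

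The same 8 genes marked the class after processing. Against all 317 other post-processed barcodes the log2 ratios ran from 1.61 (CSF1R) to 2.59 (IL6R), and 8 of 8 were at least 2-fold higher, where 12.7% of 4437 measured genes were. Those other barcodes were mostly the shallow cluster, which itself held the genes. Without it, 88 other barcodes remained and the ratios rose to between 3.03 (IL6R) and 5.03 (CALCR) for 7 genes. VAV1 had 153 UMIs in the class and 0 in those 88 barcodes, which makes it at least 20.8-fold higher against a limit of 3 counts over the group. In this comparison 20.8% of 4226 genes were at least 2-fold higher and 17.1% at least 2-fold lower.

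The share of a gene's UMIs that fell in the class shows how far the libraries differed in makeup. In the pre-processed library the class held 57.3% of P2RY12, 59.1% of CSF1R, 63.7% of CALCR and 63.1% of VAV1 UMIs. It held 52.1% of INPP5D, 49.1% of RUNX1 and 38.0% of IL6R UMIs, and only 28.2% of KCNK13 UMIs. After processing the class held between 84.8% (CSF1R) and 91.8% (IL6R) of each gene's UMIs, and together with the shallow cluster between 95.7% (IL6R) and 100% (VAV1). Over the whole library, P2RY12 was at 74.6 CPM before and 1709 CPM after processing, and KCNK13 at 184 and 2020 CPM. In library totals, more nuclei of a class and more RNA per nucleus cannot be told apart.

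Single barcodes of the class usually carried several of the genes. With full counts the median microglia-like barcode had a UMI of 6 of the 8 in either library, with a range of 3 to 8 before and 2 to 8 after processing. Thinned to 200 UMIs, the median was 3 genes before and 2 after processing, and 4.71% and 7.91% of barcodes showed none. At that equal depth 95.4% of neuron-like and 92.8% of astrocyte-like pre-processed barcodes showed none of the 8. KCNK13 was seen in 65.9% (54.8 to 75.8) of thinned microglia-like barcodes before and 49.7% (42.1 to 57.3) after processing. CALCR went the other way, with 30.6% (21.0 to 41.5) before and 43.5% (36.1 to 51.1) after. Both pairs of intervals overlapped. Among the 179 oligodendrocyte-like barcodes of the pre-processed library 99.4% showed none of the 8 at that depth, although their full counts held 11 IL6R, 8 KCNK13 and 4 P2RY12 UMIs.

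**Figure D2:**
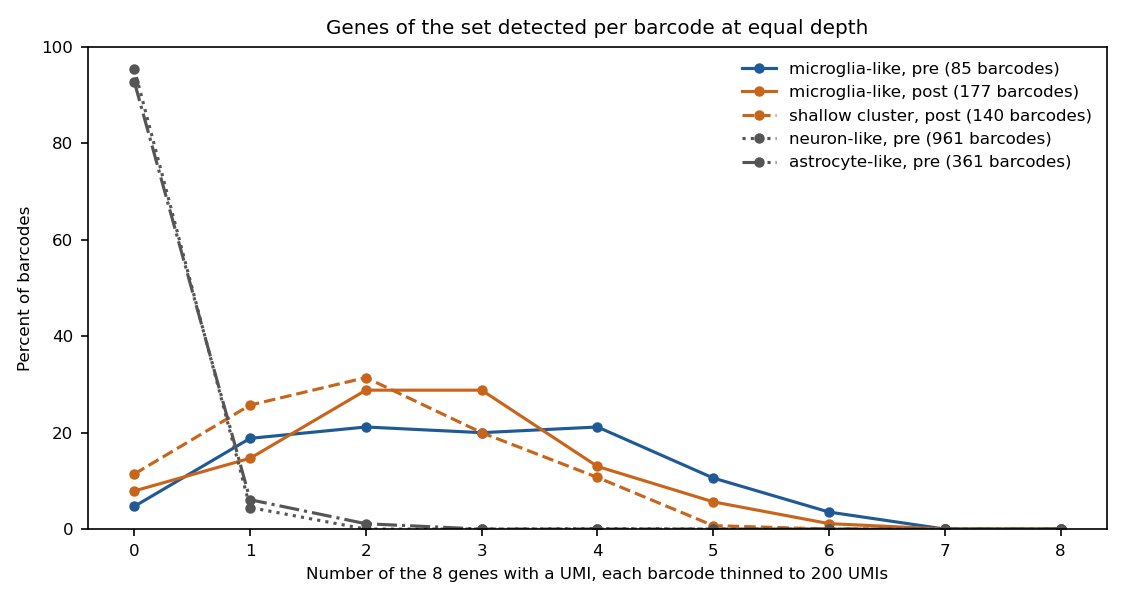
Percent of barcodes (vertical axis) by how many of the 8 genes had at least 1 UMI (horizontal axis), each barcode thinned to 200 UMIs. Most neuron-like and astrocyte-like barcodes sit at 0 genes, and the microglia-like barcodes spread from 0 to 6 with medians of 3 before and 2 after processing.

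Outside the class the genes were at low summed levels, and their proportions there were compared with those in the class. The UMIs outside the class were not spread evenly. With full counts, 1205 (59.1%) of the 2040 other pre-processed barcodes had no UMI of the 8 genes. At least 3 of the genes were seen in 82 (4.02%) and all 8 in 5. The 82 included 30 neuron-like, 24 astrocyte-like and 5 oligodendrocyte precursor-like barcodes. Whether such barcodes were doublets was not tested, so the class levels below do not describe a typical barcode. Among pre-processed classes P2RY12 ran from 13.4 CPM (3.66 to 34.4) in oligodendrocyte-like barcodes and 15.2 CPM (12.4 to 18.4) in neuron-like barcodes to 73.2 CPM (57.8 to 91.3) in astrocyte-like and 102 CPM (68.5 to 147) in precursor-like (OPC) barcodes. The first 2 classes did not differ beyond counting error, nor did the last 2. CSF1R followed P2RY12 closely: it made up 30.03% (26.3 to 33.9) of the UMIs of the pair in microglia-like barcodes, 31.3% (24.0 to 39.4) in neuron-like and 30.4% (22.0 to 39.8) in astrocyte-like barcodes. KCNK13 did not keep its proportion. It made up 54.8% (51.5 to 58.1) of the KCNK13 and P2RY12 UMIs in microglia-like barcodes, 72.1% (66.5 to 77.3) in astrocyte-like and 89.4% (87.4 to 91.3) in neuron-like barcodes, from 873 KCNK13 and 103 P2RY12 UMIs in the last. IL6R made up 12.8% (9.88 to 16.1) of its pair with P2RY12 in the class, 17.6% (11.4 to 25.4) in neuron-like and 37.1% (28.6 to 46.2) in astrocyte-like barcodes. In oligodendrocyte-like barcodes it was 73.3% (44.9 to 92.2), from 11 IL6R and 4 P2RY12 UMIs. Against the pre-processed class, RUNX1 and INPP5D were also over-represented beside P2RY12 in neuron-like barcodes. RUNX1 made up 49.5% (42.5 to 56.6) against 34.7% (31.0 to 38.6) in the class. INPP5D made up 67.4% (61.9 to 72.5) against 56.8% (53.6 to 60.0). In the post-processed class RUNX1 made up 49.3% (47.2 to 51.4) and INPP5D 60.2% (58.4 to 62.0), and these intervals overlapped the neuron-like ones. An excess over microglia-like barcodes of both libraries is therefore not shown for these 2 genes. What the KCNK13, IL6R, INPP5D and RUNX1 UMIs outside the class come from was not tested. KCNK13 overlaps 2 long noncoding RNAs and INPP5D 3 in the sheep RefSeq table, and since the counting of strand is not stated, reads of such partners cannot be told apart. The noncoding RNA LOC114115665, within KCNK13, had 128 UMIs in the other pre-processed barcodes and 0 in the class. The limit for 0 UMIs in the class, 22.8 CPM, lies above its level in the other barcodes, so no direction can be given.

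The KCNK13 signal outside microglia was highest in 1 finer cluster. At the finer resolution of 1.0, the pre-processed cluster led by RELN, the gene of the secreted protein reelin, held 54 barcodes with KCNK13 at 508 CPM (427 to 600) from 139 UMIs in 31 of the barcodes. P2RY12 had 8 UMIs there, in 1 barcode. In the other clusters closest to neurons KCNK13 was at 44.7 to 146 CPM, below the interval of the RELN-led cluster. RUNX1 stood out in a different cluster, led by NXPH1 and SST, the gene of the peptide somatostatin: 90.1 CPM (55.0 to 139) over 36 barcodes, but its 20 UMIs came from only 4 barcodes. These 2 clusters were singled out after their values were seen.

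**Figure D3:**
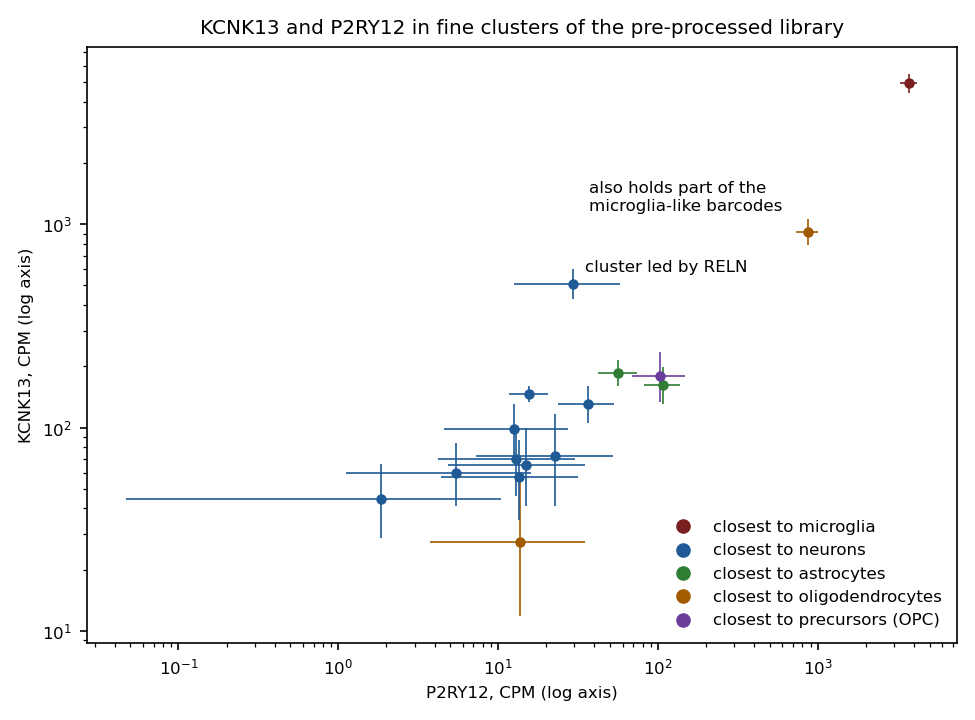
KCNK13 against P2RY12, both in CPM on log axes, in each finer cluster of the pre-processed library; bars are 95% counting intervals and colours give the class whose markers each cluster is closest to. The RELN-led cluster lies at 508 CPM of KCNK13 from only 8 P2RY12 UMIs, above the other neuron clusters at 44.7 to 146 CPM, and the microglial cluster lies at the upper right.

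Other genes of the same pathways are set beside the 30.2% of all measured genes that were at least 2-fold higher in the class. Of 3 measured purinergic receptors, 2 were at least 2-fold higher in pre-processed microglia-like barcodes: P2RY13, a second ADP receptor, at 107 against 1.27 CPM, and P2RY14, a receptor for UDP-sugars, at 122 against 3.07 CPM. Of 5 measured homeostatic microglial genes 5 passed 2-fold upwards, and their median was 2.32 on the log2 scale, although OLFML3 did so from 1 UMI in the class, with an interval of -4.34 to 3.57. They included MERTK, a receptor for the uptake of dying cells, at 1211 against 221 CPM and TGFBR1, a TGF-beta receptor, at 183 against 37.4 CPM. Around INPP5D, 5 of 6 phosphoinositide genes were at least 2-fold higher, among them SYK, the kinase of immune receptor signalling, at 533 against 18.3 CPM. Around VAV1, 4 of 5 were, among them ELMO1, part of a Rac activator, at 4393 against 944 CPM. VAV3 did not reach 2-fold (563 against 341 CPM). Around RUNX1, 2 of 4 were: IKZF1 (Ikaros) at 959 against 12.5 CPM and ETV6 at 1264 against 225 CPM.

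Around CALCR and IL6R the share of genes that were higher was near that of all measured genes. Around IL6R, only TYK2 of 3 measured JAK kinases was at least 2-fold higher, and JAK1 was at 738 CPM in the class against 1052 CPM elsewhere. Around CALCR, 1 of 4 was higher (CALCRL, its sister receptor, 107 against 13.9 CPM) and 2 were at least 2-fold lower. One of the latter was RAMP1, which turns CALCR into an amylin receptor, but from only 2 UMIs in the class, and its log2 ratio of -1.39 (-4.76 to 0.15) took in 0. The ligand gene CSF1 had 0 UMIs in the class, a limit of 22.8 CPM that lies above its 10.2 CPM elsewhere, so no direction can be given. Of the 4 other tandem-pore channels measured, none was higher and 3 were at least 2-fold lower, among them KCNK12, the closest relative of KCNK13, at least 3.90-fold lower with 0 UMIs in the class and 89.1 CPM elsewhere.

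Within the class as a whole, the 8 genes differed between the libraries by less than 2-fold and in opposite directions. CALCR was at 2002 CPM in the pre-processed and 2830 CPM in the post-processed class, a log2 ratio of 0.50 (0.31 to 0.69). RUNX1 was likewise higher after processing, at 1660 and 2279 CPM, a log2 ratio of 0.45 (0.25 to 0.67). P2RY12 was lower after processing, at 3121 and 2342 CPM, a log2 ratio of -0.42 (-0.58 to -0.25). KCNK13 was lower by a similar amount, at 3784 and 2763 CPM, a log2 ratio of -0.45 (-0.60 to -0.30). VAV1 was lowest relative to before, at 495 and 310 CPM, a log2 ratio of -0.68 (-1.10 to -0.23). INPP5D was slightly lower, at 4111 and 3538 CPM, a log2 ratio of -0.22 (-0.36 to -0.07). The intervals of CSF1R, -0.22 (-0.47 to 0.03), and IL6R, -0.42 (-0.85 to 0.04), took in 0. None of the 8 was at least 2-fold higher, where 10.1% of 4030 measured genes were, and none was at least 2-fold lower, where 12.3% were. The median of the 8 was -0.32 and that of all measured genes -0.06. The CALCR ratio was only 0.08 at the clustering resolution of 1.0 and 0.10 when barcodes were classed by marker UMIs alone, and RUNX1 was at 0.22 in the latter and 0.15 when thinned to 200 UMIs. Without replicate libraries, differences between preparations of this size cannot be told apart from differences between any 2 libraries.

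The genes of acute activation differed far more between the same barcodes. FOS had 1 UMI in the pre-processed class and 1333 in the post-processed class. After processing, 6 of the 7 immediate early genes measured passed 2-fold upwards. Their median was 3.21 on the log2 scale, and NR4A1 was at 4.90. Of 5 measured activation genes 5 were, IL1A among them at 30.5 and 799 CPM. The 4 measured homeostatic genes other than the 8 had a median of -0.06, with none past 2-fold in either direction. P2RY13 is counted there and among the purinergic receptors. Of the 4, MERTK and BIN1 were lower after processing beyond counting error, with log2 ratios of -0.46 (-0.72 to -0.19) and -0.38 (-0.63 to -0.13). P2RY13, at 0.35 (-0.45 to 1.34), and TGFBR1, at 0.26 (-0.36 to 0.99), had intervals that took in 0. Of the lists around INPP5D (4 measured), VAV1 (5), IL6R (3) and RUNX1 (4), no gene passed 2-fold between libraries. In the VAV1 list ELMO1, at 4393 and 6062 CPM, ARHGAP25, at 708 and 1265 CPM, and VAV3, at 563 and 912 CPM, were higher beyond counting error. So were JAK2 of the IL6R list, at 167 and 302 CPM, and MEF2C and IKZF2 of the RUNX1 list. MEF2C was at 2855 and 4637 CPM and IKZF2 at 107 and 193 CPM. Of the 3 measured purinergic receptors 1 was at least 2-fold higher, the adenosine receptor gene ADORA3, at 53.3 and 130 CPM, a log2 ratio of 1.20 (0.16 to 2.65). The ligand gene CSF1 had 0 UMIs before and 38 after processing, at least 3.37-fold higher against a limit of 3 counts over the group. CALCRL was at 107 and 241 CPM, a log2 ratio of 1.13 (0.38 to 2.09).

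**Figure D4:**
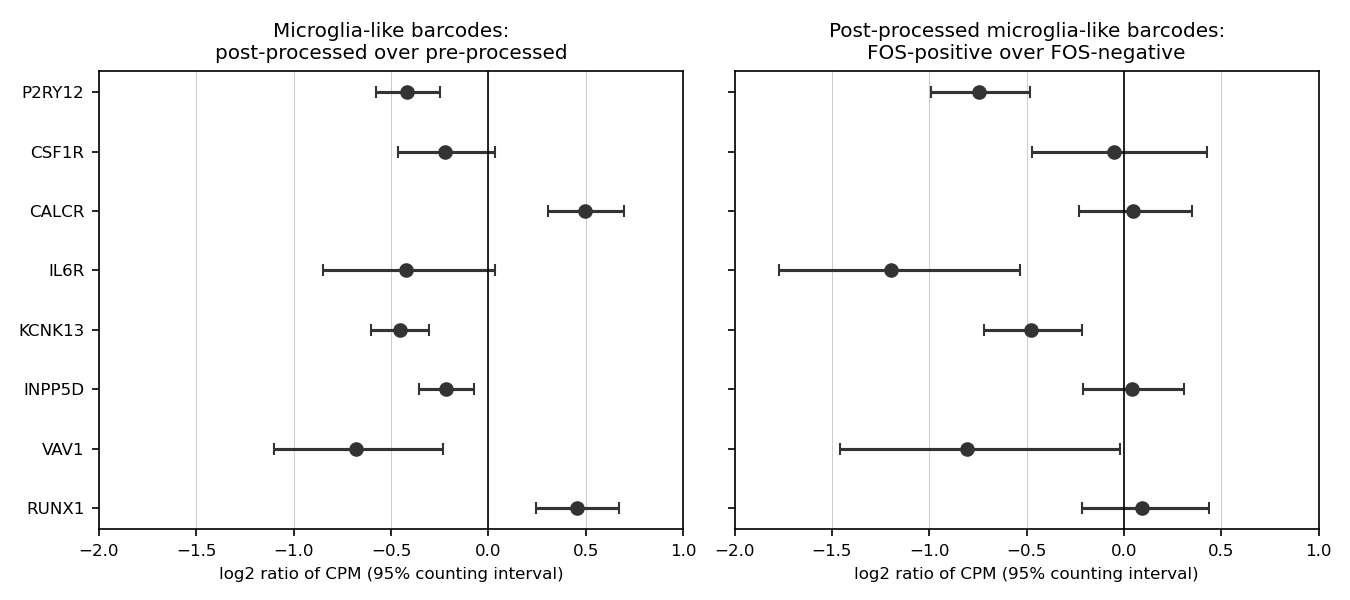
Log2 ratio of CPM for each gene with its 95% counting interval: post-processed over pre-processed microglia-like barcodes on the left, and FOS-positive over FOS-negative post-processed barcodes on the right. On the left only CALCR and RUNX1 lie above 0, and on the right P2RY12, IL6R, KCNK13 and VAV1 lie below 0 with intervals that leave it out.

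RNA of other cells in the class also differed between the libraries. Neuron markers summed to 7332 CPM in the pre-processed and 2046 CPM in the post-processed class, and astrocyte markers to 982 and 243 CPM. Oligodendrocyte markers summed to 5908 and 6283 CPM, and the 14 microglial markers to 5329 and 8041 CPM. Precursor (OPC) markers summed to 1507 and 746 CPM, fibroblast markers to 244 and 626 CPM and mural markers to 15.2 and 95.3 CPM. Monocyte and granulocyte markers had 0 UMIs before, a limit of 22.8 CPM, and summed to 18.2 CPM after, so no difference in them was detectable at this depth. The part of this RNA in the results was not tested, beyond leaving out the 45 pre-processed and 82 post-processed barcodes with at least 2 oligodendrocyte marker UMIs, which kept the sign of all 8 ratios.

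At the finer resolution the class fell into 3 clusters of at least 20 barcodes, and there the comparison between libraries looked different. The cluster led by IKZF1 and DOCK8 held 57 pre-processed and 23 post-processed barcodes, 1 and 8 of them with a FOS UMI. In it P2RY12 was at 3711 and 4201 CPM, a log2 ratio of 0.18 (-0.14 to 0.49), and KCNK13 at 4929 and 4336 CPM, a ratio of -0.18 (-0.49 to 0.11). Only CALCR, at 3453 and 4641 CPM, differed there beyond counting error, with 0.43 (0.11 to 0.73). The second cluster, led by DMP1 and PDK4, was almost wholly post-processed, with 118 barcodes against 1, and 94.1% of the 118 were FOS-positive. It held P2RY12 at 2749 CPM (2559 to 2950) and IL6R at 401 CPM (330 to 482), both below the post-processed level in the first cluster, 4201 CPM (3494 to 5008) and 847 CPM (548 to 1250). CALCR was also lower, at 3455 CPM (3242 to 3679) against 4641 CPM (3896 to 5486). The intervals of the other 5 genes overlapped those of the first cluster, among them KCNK13 at 3431 CPM and RUNX1 at 2781 CPM.

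The third cluster held 27 barcodes of the class from each library and carried the oligodendrocyte markers, at 11751 CPM before and 13404 CPM after processing. Each of the 8 genes was lower in it than in the cluster led by IKZF1 and DOCK8 of the same library. P2RY12 was at 2277 and 1327 CPM, and VAV1 at 366 and 74.0 CPM, a log2 ratio after over before of -2.28 (-3.42 to -1.25). CALCR again ran opposite, from 366 to 1566 CPM, a ratio of 2.07 (1.47 to 2.80). RUNX1 was also higher after processing, at 981 and 1406 CPM, a ratio of 0.51 (0.11 to 0.96). The median depth of these barcodes was 2286 UMIs before and 5041 UMIs after processing. CALCR was thus higher after processing in both clusters that the libraries share, and P2RY12, INPP5D, KCNK13 and VAV1 were lower beyond counting error only in the cluster with oligodendrocyte markers.

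**Figure D5:**
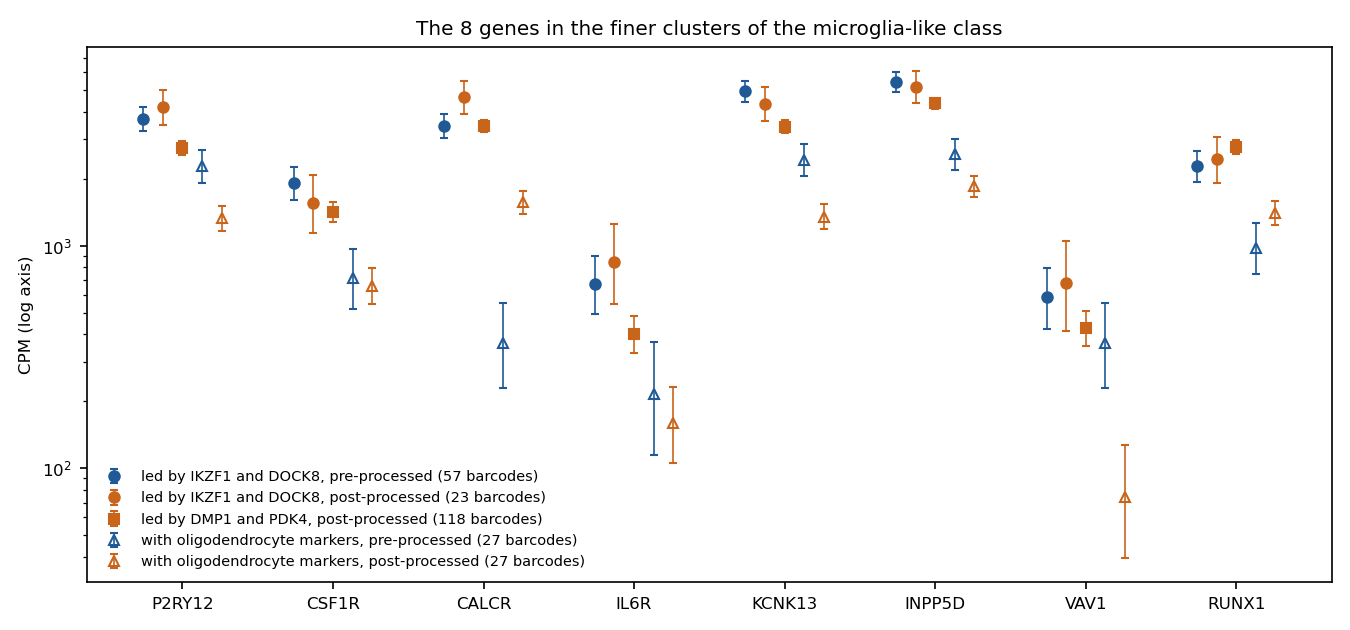
CPM (log axis) of the 8 genes in the 3 finer clusters of the microglia-like class, by library, with 95% counting intervals. The open triangles, the barcodes with oligodendrocyte markers, lie lowest for each gene within a library, and the widest gaps between libraries there are those of VAV1, 366 against 74.0 CPM, and CALCR, 366 against 1566 CPM.

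FOS, the immediate early transcription factor gene, split the post-processed class into 151 barcodes with at least 1 FOS UMI and 26 with none. The pre-processed class had 1 FOS-positive barcode of 85 and could not be split. IL6R was at 311 CPM in FOS-positive and 703 CPM in FOS-negative barcodes, a log2 ratio of -1.20 (-1.77 to -0.54), or 2.29-fold lower. P2RY12 was at 2221 and 3716 CPM, a ratio of -0.75 (-0.99 to -0.48). Yet it was seen in 87.4% (81.0 to 92.3) of FOS-positive and 69.2% (48.2 to 85.7) of FOS-negative barcodes, the opposite direction. Thinned to 200 UMIs, the shares were 39.7% (31.9 to 48.0) and 26.9% (11.6 to 47.8). Both pairs of intervals overlapped, so no difference in share is shown. The median barcode held P2RY12 at 2132 and 2409 CPM. KCNK13 was at 2680 and 3716 CPM, a ratio of -0.48 (-0.72 to -0.22), and VAV1 at 293 and 502 CPM, a ratio of -0.81 (-1.46 to -0.02). Over all depths together the summed levels of IL6R, P2RY12, KCNK13 and VAV1 were lower where FOS was seen. The split runs along the finer clusters: 111 of the 151 FOS-positive barcodes lay in the cluster led by DMP1 and PDK4, and 15 of the 26 FOS-negative ones in that led by IKZF1 and DOCK8, which had more P2RY12 and IL6R. The part of the clusters in these differences was not tested. The other 4 did not differ beyond counting error: CSF1R at -0.05 (-0.47 to 0.42), INPP5D at 0.04 (-0.21 to 0.31), CALCR at 0.05 (-0.23 to 0.35) and RUNX1 at 0.09 (-0.22 to 0.44). IL6R alone, 1 of 8, was at least 2-fold lower, where 11.3% of 3513 measured genes were, and none was at least 2-fold higher, where 7.2% were. Over the same split, 6 of the 7 immediate early genes measured passed 2-fold upwards, JUN among them at 2.45. Of the 4 other homeostatic genes none passed 2-fold, the nearest being TGFBR1 at -0.99 (-1.73 to -0.09). None passed 2-fold in the lists around P2RY12, CSF1R, CALCR, IL6R, INPP5D, VAV1 and RUNX1, where IKZF1 was at -0.67 (-1.06 to -0.23).

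These differences varied with depth. The median depth was 1622 UMIs in FOS-positive and 1141.5 in FOS-negative barcodes. Among barcodes under 1000 UMIs (40 against 10) the P2RY12 ratio was -0.13 (-0.76 to 0.59), and from 1000 to under 2000 UMIs (44 against 11) it was -0.25 (-0.69 to 0.23). Only among the 67 and 5 barcodes of 2000 or more did the interval leave out 0, at -0.99 (-1.33 to -0.61), and these 5 barcodes held 71 of the 148 P2RY12 UMIs of the FOS-negative group. IL6R was lower beyond counting error in the middle and the deepest bin, at -1.41 (-2.46 to -0.27) and -1.23 (-2.05 to -0.18), and at -0.08 (-1.77 to 2.54) in the shallowest, from 13 and 3 UMIs. For KCNK13 and VAV1 the interval took in 0 in every bin. From shallowest to deepest KCNK13 was at 0.12, -0.15 and -0.31, and VAV1 at -0.44, -0.31 and -0.91. CALCR, which did not differ over all depths, was higher in the deepest bin, at 0.95 (0.39 to 1.65), from 918 and 23 UMIs. When FOS was called after thinning each barcode to 500 UMIs, the groups became 105 and 64 barcodes and the ratios were 0.00 for P2RY12, -0.03 for IL6R and 0.37 for VAV1. Oligodendrocyte markers summed to 6502 CPM in FOS-positive and 3791 CPM in FOS-negative barcodes and neuron markers to 2135 and 1029 CPM. Fibroblast markers summed to 591 and 1029 CPM, and markers of lymphocytes, of monocytes and granulocytes and of mural cells were at 0 in FOS-negative barcodes, a limit of 75.3 CPM, against 41.9, 19.8 and 104 CPM in FOS-positive ones. The part of this RNA in the FOS differences was not tested.

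Over the number of FOS UMIs, IL6R was at 703 CPM (467 to 1016) in the 26 barcodes with none, 428 CPM (310 to 577) in 62 barcodes with 1 to 4, 320 CPM (231 to 433) in 56 with 5 to 9 and 252 CPM (191 to 328) in 33 with 10 or more. Neighbouring levels overlapped, and the first and last did not. P2RY12 showed no such order, at 3716, 2022, 2403 and 2203 CPM. CALCR was at 2737, 3387, 3510 and 2194 CPM, highest in the middle. Deeper barcodes have more chances of a FOS UMI, so these classes also differ in depth.

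The shallow cluster carried the same genes. Its 229 post-processed barcodes had P2RY12 at 1873 CPM (1567 to 2221), CSF1R at 1291 CPM (1039 to 1585) and INPP5D at 3050 CPM (2656 to 3486). Against the post-processed microglia-like class, 7 of the 8 genes had log2 ratios between -0.32 and 0.17. IL6R was the exception, with 7 UMIs, 99.3 CPM (39.9 to 205) and a ratio of -1.69 (-3.12 to -0.71). It was 1 of 8 at least 2-fold lower, where 5.55% of 3819 measured genes were. Thinned to 200 UMIs, P2RY12 was seen in 34.3% (26.5 to 42.8) of the 140 barcodes deep enough, against 37.9% (30.7 to 45.4) in the class. The 25 post-processed endothelium-like barcodes also held the genes, P2RY12 at 383 CPM (219 to 622) and INPP5D at 886 CPM (624 to 1221), and 13 of the 14 microglial markers were raised there. VAV1 had 0 UMIs in them.

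The genes whose level most resembled each of the 8 over the clusters were found from 16 sums of cluster and library, with Pearson's r of log2(CPM + 10) among 5850 genes. These sums share libraries and depth, and most of their spread is that between microglial clusters and the rest, so r is given as a description. For P2RY12 the nearest was CSF1R (0.99), followed by HOMER3 and LOC101109941. For CSF1R they were CYTH4, BIN2 and CALCR (0.99 each), and for CALCR they were CSF1R, BIN2 and LOC114115224. For RUNX1 they were CSF1R, CALCR and CPED1 (0.97 each). For INPP5D they were CCDC141 (0.99), LOC101120733 and CSF1R. For VAV1 they were ICAM3, PLCB2 and MYO1F (0.99 each). For IL6R they were IRAK3, TAB2 and NSD1 (0.96 each), and for KCNK13 they were CD1D, CYFIP1 (0.96) and KLHL8 (0.95). Between the 8 genes themselves r ran from 0.80 (IL6R with VAV1) to 0.99 (CSF1R with CALCR), and IL6R, KCNK13 and VAV1 had none of the other 7 among their nearest 3.

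P2RY12 lies within the gene MED12L in the RefSeq table, which could add reads to either. MED12L was at 274 CPM in the pre-processed class and 545 CPM in the other barcodes, where P2RY12 was at 32.3 CPM. After processing MED12L was higher in the class, at 172 against 88.2 CPM, a log2 ratio of 0.94 (0.30 to 1.68), or 1.08 (0.34 to 1.99) without the shallow cluster.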

How the data were processed

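The deposited files hold whole-number UMI counts per gene and barcode, with features and barcodes listed beside them; per the submitters' processing notes the authors used DRAGEN, and no source used here gives the genome build or the use of strand. Only these counts were used. Symbols that occur more than once among the 13765 features were summed. Barcodes under 100 detected genes were left out. Both libraries were clustered together with Seurat 5.3.0 in R 4.3.3 (log-normalized to 10000, 2000 variable genes without the 8 genes and FOS, 30 components, Louvain resolution 0.5). A cluster took the class whose markers were most raised, with at least 3 markers raised 1.5-fold over the 25th percentile of other clusters; it stayed unnamed if another class had more markers among its 10 leading genes, or its median depth was under the library median divided by 2. This naming rule was written after the clusters were seen. No doublet caller was run.

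UMIs were summed per class and library and divided by the total (CPM). CPM has exact Poisson intervals, shares exact Clopper-Pearson intervals, and log2 ratios (0.5 counts added) exact conditional binomial intervals, computed with scipy 1.17.1 in Python 3.11.15 and tested on simulated data. A group at 0 UMIs was set to a limit of 3 counts over the group for calls of 2-fold. Measured genes had at least 20 UMIs in the 2 groups compared. For each gene list the text names genes from the 3 with most UMIs in the class. RAMP1, OLFML3, KCNK12 and IKZF2 were named after their values were seen. For each of the 8 genes the 3 genes with the highest r, over sums of at least 20 barcodes and among genes of at least 100 UMIs, are named. The genes and lists were chosen with earlier results of these data known. Alternatives covered the clustering, the minimum of genes, the naming of the shallow cluster, oligodendrocyte marker UMIs, means over barcodes, thinning, the counts added, the scaling and the FOS call. Matching all 8 symbols to the sheep RefSeq table (assembly ARS-UI_Ramb_v3.0) gave neighbours only.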

Additional observations from a re-analysis of the deposited data

Results flagged for a closer look

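The 411 post-processed barcodes with under 100 detected genes entered no comparison, yet the 8 genes had UMIs there. For 6 of the 8 the lower end of the counting interval lay above the limit that a count of 0 allows, 103 CPM from 3 of 28995 UMIs. These barcodes had a median of 64 UMIs each. Summed, they held P2RY12 at 2000.3 CPM (1519 to 2586), CSF1R at 1380 CPM (986 to 1879) and INPP5D at 2173 CPM (1670 to 2780). CALCR was at 1138 CPM (783 to 1598), KCNK13 at 2000.3 CPM (1519 to 2586) and RUNX1 at 1449 CPM (1044 to 1958). Against the post-processed microglia-like class, the intervals of P2RY12 and CSF1R took in the level of the class, 2342 and 1152 CPM, and those of INPP5D, CALCR, KCNK13 and RUNX1 lay below theirs, 3538, 2830, 2763 and 2279 CPM. IL6R, at 172 CPM from 5 UMIs, and VAV1, at 207 CPM from 6 UMIs, were above that limit, but the lower ends of their intervals, 56.0 and 75.9 CPM, were not. Over all kept post-processed barcodes P2RY12 was at 1709, INPP5D at 2618, KCNK13 at 2020 and RUNX1 at 1662 CPM, each within its interval here. CSF1R, at 876 CPM, and CALCR, at 2066 CPM, lay outside theirs. Whether these barcodes hold nuclei, and of which class, was not tested.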

How the results depend on the processing

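No paired analysis was possible because each preparation is a single library. With 1 library a group, no replicate could be left out. The count of genes at least 2-fold higher in the class was 8 of 8 before processing in 11 of 11 alternatives. After processing it was 8 in 10 of 12, 6 when barcodes were thinned to 200 UMIs, and 3 when barcodes were averaged with equal weight, where the shallow cluster made up most of the other barcodes. Leaving that cluster out of the other barcodes was chosen after seeing the data. Between libraries, all 8 genes kept their sign in 12 of 12 alternatives, with CALCR between 0.08 and 0.57 and P2RY12 between -0.64 and -0.29. The median of the 8 over the FOS split was -0.26 and kept its sign in 12 of 15 alternatives, but was 0.23 when FOS was called after thinning to 500 UMIs. P2RY12 ranged from -0.83 to 0.89, the last when thinned to 200 UMIs, from 91 and 8 UMIs in a single draw, and IL6R from -1.36 to -0.03. Depth limits VAV1 and IL6R most: the FOS-negative group had 20 and 28 UMIs of them.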
